A study of Mus musculus with 3 samples.

Results

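The genes described here are 10 Kruppel-like factors, Klf2, Klf3, Klf4, Klf6, Klf7, Klf9, Klf10, Klf11, Klf13 and Klf16. They were looked up by gene symbol and are 10 of the 17 KLF genes and of 55536 annotated genes in the tables. The 10 were named with earlier results of these data known, and 6 of the 7 KLF genes left out have at most 3 counts in any library. Polyadenylated RNA came from bone-marrow-derived macrophages, cells cultured from marrow precursors, of the inbred mouse strain C57BL/6J. The labels describe 1 treatment only. The cells received 100 ng/ml lipid A for 12 hours, spent 12 hours after a wash without it, and then met the same dose once more for 180 minutes. Lipid A anchors lipopolysaccharide in the outer membrane of bacteria, whereas another label field names the agent as lipoprotein A, a protein, and the labels do not settle which it was. The 3 samples are replicates 1, 2 and 3 of this single group and all carry the same donor record. Any p-value therefore reflects only how these samples scatter, and that scatter may be technical. No unexposed or singly exposed cells were analysed here, and nothing below says whether lipid A raised or lowered a gene.

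Kruppel-like factors are transcription factors that bind GC-rich and CACCC-type DNA through a run of zinc fingers at their C-terminal end, and they share this domain with the SP factors. Their N-terminal parts differ and set the partners. One group mostly activates transcription through acetyltransferases (Klf2, Klf4, Klf6 and Klf7), another binds the corepressor CtBP (Klf3), and a further one binds the corepressor SIN3 (Klf9, Klf10, Klf11, Klf13 and Klf16). In macrophages Klf2 and Klf4 are known as brakes on inflammatory activation, Klf4 also as a factor of monocyte differentiation, and Klf6 as a factor that supports NF-kappaB target genes.

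The libraries held 23377091, 36824106 and 37685712 expected counts in replicates 1, 2 and 3. Levels are TPM, which divides by transcript length and scales each library to the same total, given as mean ± SD over n = 3 replicates. All 10 macrophage markers, among them Lyz2, Adgre1 and Csf1r, reached 1 TPM in every replicate, with summed levels of 19217 to 22279 TPM. Endothelial cells express Klf2 and Klf4 strongly. Of their 7 markers 2 reached 1 TPM (Pecam1 and Vwf), the sum ran from 5.27 to 10.9 TPM, and Tek and Cldn5 were at 0. None of the lymphocyte, erythroid or fibroblast and smooth muscle markers reached 1 TPM in every replicate (0 of 7, 0 of 5 and 0 of 6). Of 7 neutrophil markers S100a8 and S100a9 did, with summed levels of 12.0, 98.5 and 10.8 TPM in replicates 1, 2 and 3, while Ly6g and Retnlg were at 0. In bulk RNA, fewer cells of a type and less RNA per cell cannot be told apart.

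The family was dominated by a single gene. Klf6 stood at 323, 284 and 268 TPM in replicates 1, 2 and 3, a mean of 292 ± 28.0 TPM (SD, n = 3). That was 74.0% ± 0.758 of the summed TPM of the 10 members. The mean lay at or above that of 94.95% of 9749 protein-coding genes with at least 1 TPM in all replicates. Klf3 followed at 50.8 ± 4.95 TPM and Klf13 at 20.8 ± 2.08 TPM. The remaining members had means between 0.53 and 9.91 TPM. In all, 8 of 10 members reached 1 TPM in every replicate, against 44.3% of 22028 protein-coding genes, and 3 of 10 reached 10 TPM, against 27.4%. Since the choice left out KLF genes that are almost silent here, these counts are descriptions, and of the 7 KLF genes left out 1 reached 1 TPM. The members that did not reach 1 TPM throughout were Klf9 and Klf11. Klf4 passed narrowly, with 1.02 TPM in replicate 2.

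**Figure D1:**
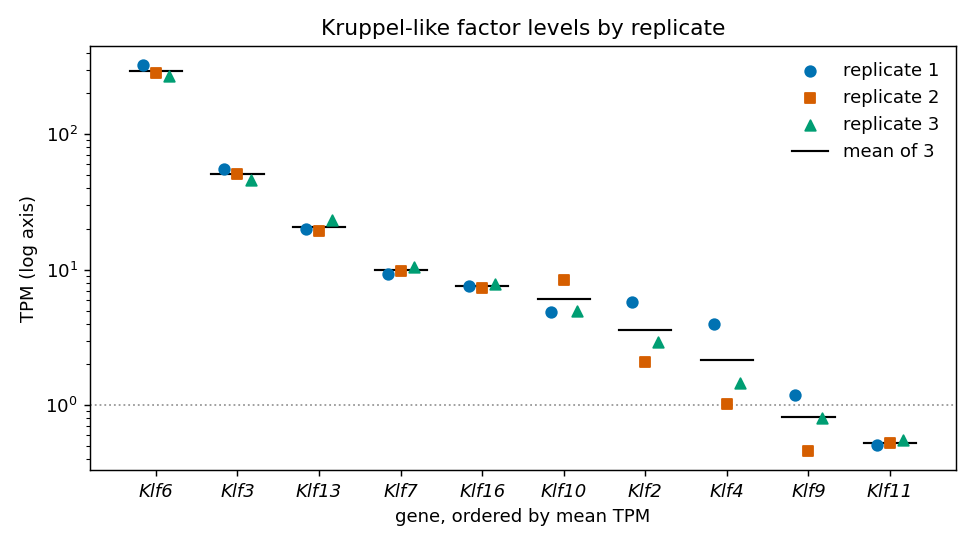
Level of each member in TPM on a log axis, 1 symbol per replicate, with the mean of 3 as a bar and a dotted line at 1 TPM. Klf6 lies between 268 and 323 TPM, above every value of the other members, and the symbols of Klf10, Klf2, Klf4 and Klf9 are spread most.

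Grouped by partner, the activators summed to 342, 297 and 283 TPM in replicates 1, 2 and 3, or 78.0% ± 1.06 of the members' TPM (SD, n = 3). The CtBP-binding Klf3 made up 12.9% ± 0.369. The 5 SIN3-binding members together came to 34.3, 36.01 and 37.4 TPM, or 9.17% ± 1.15. The order of the 3 groups was the same in each replicate, and the activator share is almost wholly Klf6.

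Klf6 (ENSMUSG00000000078.7, chromosome 13, 5861482 to 5870394, plus strand; gene coordinates here are of GRCm38, which the files call mm10) had 19652, 28314 and 27210 counts. Its highest replicate was 1.2 times its lowest. The transcript Klf6-201 carried 96.5% ± 0.758 of its TPM (SD, n = 3), a transcript with a retained intron, Klf6-202, 2.70% ± 0.626, and Klf6-203, annotated as a target of nonsense-mediated decay, 0.849% ± 0.178. Klf6 exceeded its close relative Klf7 by a log2 TPM ratio of 5.11, 4.85 and 4.67, a mean of 4.88 ± 0.22 or 29.4-fold, and Klf2 by 5.81, 7.10 and 6.53, a mean of 6.48 ± 0.65 or 89.2-fold. Both ratios lay far from 0 in all replicates, and that to Klf2 varied more. An exact sign-flip test of 3 values cannot give a two-sided p below 0.25, so no p is given for any of the 7 ratios computed.

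The promoter of Klf6, the member that makes up most of the family's RNA, is shown because it lacks the CACCC box that KLF proteins are known to bind. It covers 250 bases before to 50 after the RefSeq start on the plus strand (chr13:5861239-5861538, GRCm38.p6), 5′ to 3′, and the capitals mark its single GC box (GGGCGG, on either strand).
Klf6: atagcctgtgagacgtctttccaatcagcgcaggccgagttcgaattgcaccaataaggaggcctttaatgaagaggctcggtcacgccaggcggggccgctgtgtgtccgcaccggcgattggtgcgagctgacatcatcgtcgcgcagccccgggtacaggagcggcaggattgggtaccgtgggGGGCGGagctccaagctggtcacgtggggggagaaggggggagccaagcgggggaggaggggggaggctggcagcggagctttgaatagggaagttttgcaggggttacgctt
RefSeq promoters of this length were at hand for 8 of the 10 members, all but Klf10 and Klf16. A GC box occurred in 7 of these 8, against 35.7% of 32851 mouse promoters, and a CACCC box, searched on both strands, in 5 of 8, against 57.5%. Such matches are descriptions of the letters and not of binding, and matches of different motifs can overlap. The 8 promoters were 58.3% to 77.7% G and C, against a median of 52.7% over all. No motif was compared among promoters of like content.

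Klf7 (ENSMUSG00000025959.13, chromosome 1, 64029447 to 64122282, minus strand), best known from neurons, was at 9.35, 9.87 and 10.5 TPM, a mean of 9.91 ± 0.581 TPM (SD, n = 3). The 3 values lay close together, with a highest replicate 1.12 times the lowest. Most of its TPM, 85.0% ± 7.18, was in Klf7-202, whose 3′ end is the longest among the leading transcripts described below. Of the 31-base sequences of its transcripts 38.7% also occur, on either strand, in another gene, nearly all of them in Gm26649, a long noncoding RNA on the opposite strand. Whether counting used strand is not given in the sources used here, so reads of the pair may not be told apart. The deposited posterior SD of the Klf7 count was 15.95, 24.9 and 21 for 876, 1764 and 1774 counts.

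Klf2 and Klf4, the members known as brakes on macrophage activation, were low and varied most between the libraries. Klf2 (ENSMUSG00000055148.7, chromosome 8, 72319033 to 72321656, plus strand) had levels of 5.77, 2.07 and 2.91 TPM in replicates 1, 2 and 3, from 146, 84 and 120 counts. Klf4 (ENSMUSG00000003032.8, chromosome 4, 55527143 to 55532466, minus strand) stood at 3.99, 1.02 and 1.46 TPM, from 169, 73 and 106 counts. Both were highest in replicate 1 and lowest in replicate 2, the highest being 2.79 times the lowest for Klf2 and 3.91 times for Klf4. Counting error alone put Klf4 at 6.18 to 8.41 CPM (counts scaled to library size, not divided by length) in replicate 1 and at 1.55 to 2.49 CPM in replicate 2 (exact Poisson 95% intervals), so the libraries differed by more than that. Klf2 exceeded Klf4 in each replicate, by a log2 TPM ratio of 0.53, 1.02 and 1.00, a mean of 0.85 ± 0.28 (SD, n = 3) or 1.80-fold. Klf2 is the shorter transcript, and from counts not divided by length the mean log2 ratio was 0.06, with Klf4 above Klf2 in replicate 1. Klf2 has a single annotated transcript, and 98.3% ± 2.89 of the Klf4 TPM was in Klf4-201.

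The promoters of this pair are shown because both genes were high and low in the same libraries while their promoter letters differ. Each covers 250 bases before to 50 after the RefSeq start, 5′ to 3′ on the gene's strand (GRCm38.p6). For Klf2 (chr8:72318812-72319111, plus strand) the capitals mark a match to the MEF2-type motif CTANNNNTAG and a CACCC box read on the opposite strand. For Klf4 (chr4:55532426-55532725, minus strand) they mark GC boxes on either strand, some of which overlap.
Klf2: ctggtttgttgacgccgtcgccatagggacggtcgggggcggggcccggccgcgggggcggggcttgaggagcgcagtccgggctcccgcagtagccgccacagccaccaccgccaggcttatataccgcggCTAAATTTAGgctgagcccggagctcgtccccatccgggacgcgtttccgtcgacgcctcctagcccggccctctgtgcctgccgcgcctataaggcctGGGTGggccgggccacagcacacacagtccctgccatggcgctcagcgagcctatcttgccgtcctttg
Klf4: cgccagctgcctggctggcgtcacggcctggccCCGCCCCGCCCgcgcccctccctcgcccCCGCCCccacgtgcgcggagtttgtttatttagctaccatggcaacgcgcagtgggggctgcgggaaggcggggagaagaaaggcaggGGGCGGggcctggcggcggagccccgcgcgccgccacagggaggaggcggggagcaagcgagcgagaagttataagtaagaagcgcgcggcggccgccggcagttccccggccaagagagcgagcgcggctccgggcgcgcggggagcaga
The MEF2-type match begins 118 bases before the Klf2 start (position -118). It was found in 1 of 8 member promoters, that of Klf2, and in 3.69% of all 32851. Klf4 has 4 GC boxes and Klf2 has 2. A kappaB-type motif (GGGNNNNNCC) was found in 6 of 8 member promoters, against 50.8% of all, with 5 matches each in Klf2 and Klf4, and an AP-1-type motif (TGANTCA) in 1 of 8, Klf9, against 7.81%. A CRE (TGACGTCA), an interferon-response-type motif (TTTCNNTTTC) and a TATA box (TATAAA) were found in 0 of 8, against 1.79%, 3.44% and 13.6%, which says only that these letters are not in these windows.

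Klf3 (ENSMUSG00000029178.14, chromosome 5, 64803388 to 64832901, plus strand), the CtBP-binding repressor, was at 55.7, 50.8 and 45.8 TPM in replicates 1, 2 and 3, from 3700, 5743 and 5321 counts. It exceeded Klf2 by a log2 TPM ratio of 3.95 ± 0.67 (SD, n = 3), or 15.5-fold. Of its 9 transcripts Klf3-201 led with 84.6% ± 2.85 of TPM and Klf3-206 was next with 7.5% ± 3.91. In the transcript tables made from FASTQ files the share of Klf3-201 was 72.5% ± 7.76 and that of Klf3-206 13.0% ± 9.34. With 4.53% of its 31-base sequences in other genes, mainly Gm20033 on the opposite strand, Klf3 was the member after Klf7 that shares most.

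Among the SIN3-binding members, Klf13 and Klf16 were steady. Klf13 (ENSMUSG00000052040.10, chromosome 7, 63886351 to 63938915, minus strand), known for acting on the promoter of the chemokine gene Ccl5 in T cells, was at 20.1, 19.3 and 23.2 TPM. Klf16 (ENSMUSG00000035397.8, chromosome 10, 80567124 to 80577321, minus strand) was at 7.61, 7.30 and 7.88 TPM, a mean of 7.60 ± 0.290 TPM (SD, n = 3), from 293, 453 and 497 counts. Their log2 TPM ratio was 1.45 ± 0.09, or 2.73-fold, the tightest of the 7 ratios. Klf13 overlaps 2 genes on the opposite strand, and without known strand use their reads may mix, although under 1% of its 31-base sequences (0.787%) occur in other genes.

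Klf10 (ENSMUSG00000037465.10, chromosome 15, 38291463 to 38300706, minus strand) and Klf11 (ENSMUSG00000020653.12, chromosome 12, 24651274 to 24662789, plus strand) are both known as genes induced early by TGF-beta. By the gene tables Klf10 was at 4.87, 8.47 and 4.97 TPM, from 216, 588 and 339 counts, so replicate 2 stood 1.74 times above the lowest. Klf11 was at 0.51, 0.53 and 0.55 TPM, from 31, 52 and 55 counts, below 1 TPM in every library. Klf10 exceeded Klf11 by a log2 TPM ratio of 3.26, 3.998 and 3.18, a mean of 3.48 ± 0.45 (SD, n = 3) or 11.1-fold. The value of Klf10 depends on the table. A 326-base transcript, Klf10-204, had 0 counts in the alignment-made tables and 101005, 1122 and 1293 TPM in the FASTQ-made ones, so only the gene tables are used for this gene.

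Klf9 (ENSMUSG00000033863.2, chromosome 19, 23141226 to 23168134, plus strand), a gene induced by glucocorticoids and thyroid hormone in many tissues, was at 1.2, 0.46 and 0.80 TPM, from 81, 50 and 89 counts. Its highest replicate, replicate 1, was 2.61 times its lowest, replicate 2. It stood below Klf13 by a mean log2 TPM ratio of -4.77 ± 0.67 (SD, n = 3). The exact Poisson 95% intervals were 2.75 to 4.31, 1.01 to 1.79 and 1.90 to 2.91 CPM in replicates 1, 2 and 3.

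Ordered by mean TPM, the members ran Klf6, Klf3, Klf13, Klf7, Klf16, Klf10, Klf2, Klf4, Klf9 and Klf11. Of the 9 neighbouring pairs in this order 4 were separated, meaning that the lowest replicate of the higher gene lay above the highest replicate of the lower one. These were the steps from Klf6 down to Klf16. From Klf16 on, each gene overlapped the next, so the order of Klf16, Klf10, Klf2, Klf4, Klf9 and Klf11 is not resolved step by step. Klf2 and Klf4 were nonetheless in the same order in each replicate, as were Klf4 and Klf9. Of all 45 member pairs 40 did not overlap. The means ran from 0.53 to 292 TPM and pairs of other genes were not counted, so this is a description only. Without replicate 1 or without replicate 2 the number of separated neighbours was 7; fewer samples separate more easily.

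Of the 8 members with at least 1 TPM in all replicates, 3 had a highest replicate over 1.5 times the lowest (Klf2, Klf4 and Klf10), against 25.1% of 10510 genes at that level. Without replicate 1 the count was 1, Klf10, against 11.8% of the same genes. By the FASTQ-made tables described below, and without Klf10, it was 5 of 7, against 47.9% of 10501 genes. The highest replicate was replicate 1 for 4 of the 8, replicate 2 for 1 and replicate 3 for 3, against 33.9%, 36.3% and 29.9% of the 10510 genes. Replicate 1 was the highest for Klf6, Klf3, Klf2 and Klf4, replicate 2 for Klf10, and replicate 3 for Klf7, Klf13 and Klf16. Apart from Klf2, Klf4, Klf9 and Klf10, no member's highest replicate was more than 1.22 times its lowest.

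Whether a member varied between the replicates more than genes of its abundance was tested with edgeR's quasi-likelihood fit on the counts. No gene passed at an adjusted p of 0.05, 0 of 11992 tested (0%), while 627 (5.23%) had an unadjusted p under 0.05. Among the 10 members Klf4 alone was in the latter group (edgeR, Benjamini-Hochberg adjusted p = 0.850), with log2 CPM of 1.09 above the gene mean in replicate 1 and deviations of -0.81 and -0.27 in replicates 2 and 3. Klf2 came next (edgeR, adjusted p = 0.949) with deviations of 0.82, -0.67 and -0.15. Klf9 deviated by 0.64, -0.73 and 0.09. These 3 genes had the same order of libraries, and Klf10 had another, with 0.50 in replicate 2 against -0.22 and -0.28. The common biological coefficient of variation over all genes was 0.197. With 3 replicates this test can call only very large excess. Klf8, a KLF gene outside the 10, did not pass with an F of 24.8 and an unadjusted p of 0.00498 (edgeR). The lack of calls therefore does not show that the members vary as genes of their abundance do. The neutrophil markers, with replicate 2 highest, and Vwf, at 8.64, 1.93 and 8.10 TPM with replicate 2 lowest, also moved between the libraries, and their part in these values was not tested.

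**Figure D2:**
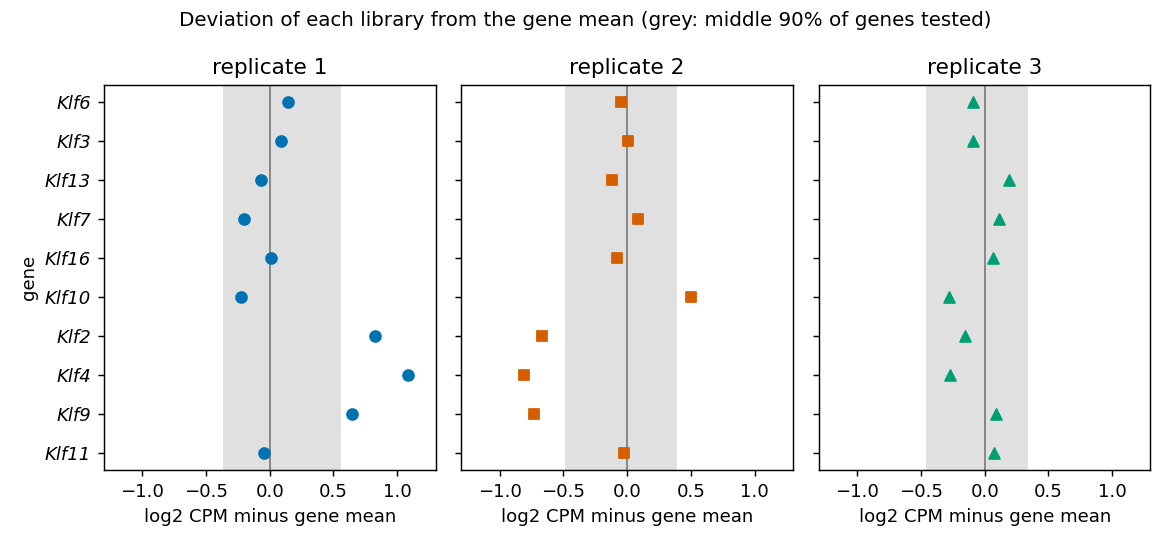
Log2 CPM minus the gene's mean over the 3 replicates for each member, 1 panel per replicate, with the middle 90% of all 11992 genes tested in grey. Klf4, Klf2 and Klf9 lie right of the grey band in replicate 1 and left of it in replicate 2, and Klf10 lies right of it in replicate 2.

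The genes whose pattern over the 3 libraries was most like that of 2 members were found among 6454 protein-coding genes with a mean of at least 10 TPM, by the root mean square difference of centred log2 TPM. For Klf6, the highest member, they were Gnb2, Snx10, Bbx, Rab3gap2 and Ankrd49, each within 0.00249 of it. With 3 samples this is a loose match, since 1154 genes lay within 0.1. For Klf4, the member of largest spread, the nearest were Tpx2 at a difference of 0.135, Dnajb9 at 0.148, Ifit1bl1 at 0.195, Ptgs2 at 0.195 and Gpr141 at 0.211, and 0 genes lay within 0.1. Tpx2, a gene of the mitotic spindle, was at 34.5, 10.4 and 15.7 TPM in replicates 1, 2 and 3, and Ptgs2, the inducible prostaglandin synthase, at 142.9, 50.6 and 65.0 TPM.

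Beyond the 10 members, the rest of the family was almost silent apart from Klf8. Klf8, another CtBP-binding repressor, was at 6.32, 1.95 and 6.97 TPM in replicates 1, 2 and 3. Its mean of 5.08 TPM lay above the means of the members Klf2, Klf4, Klf9 and Klf11. Its deviation in replicate 2, -1.19 in log2 CPM, was larger than that of any member in that library (edgeR, Benjamini-Hochberg adjusted p = 0.818). Klf1, Klf5 and Klf12 had at most 3 counts in any library. Klf14, Klf15 and Klf17 had 0 in all 3, which at 3 counts allows up to 0.128, 0.0815 and 0.0796 CPM. Of the SP factors, which bind the same GC boxes, Sp3 was at 23.5 ± 3.96 TPM (SD, n = 3), Sp1 at 15.3 ± 1.00 TPM, Sp2 at 9.37 ± 0.270 TPM and Sp4 at 3.17 ± 0.505 TPM. Sp6 was at 0.03 ± 0.0265 TPM, and Sp5, Sp7, Sp8 and Sp9 were listed at 0. Klf6 and Klf3 thus stood above all SP factors in every library, while Sp3 and Klf13 overlapped.

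**Figure D3:**
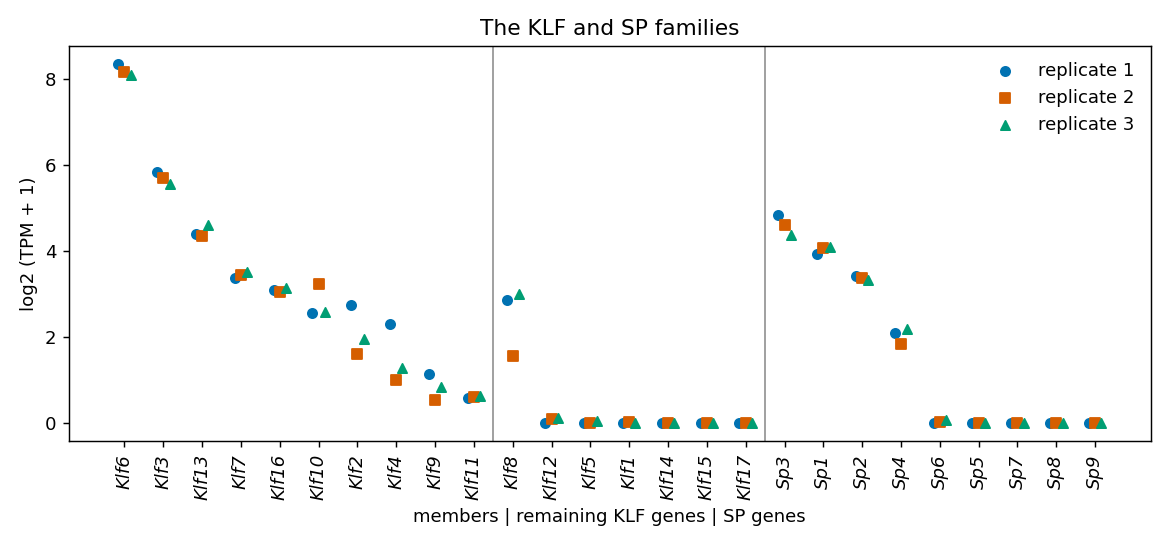
Levels as log2 (TPM + 1) of the 10 members, the 7 remaining KLF genes and the 9 SP genes, 1 symbol per replicate. Klf8 alone among the remaining KLF genes lies clearly above 0, and Sp1, Sp2, Sp3 and Sp4 lie below Klf3.

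Partners and regulators known for these proteins were looked up in lists chosen with earlier results of these data known. Of all 22028 protein-coding genes 44.3% reached 1 TPM in every replicate, and the counts for these lists are descriptions only. All 12 corepressor and coactivator genes reached 1 TPM in every replicate, led by Sin3b, the SIN3 scaffold, at 113 ± 4.91 TPM (SD, n = 3) and Ctbp1, the partner of Klf3, at 73.8 ± 5.94 TPM, with the acetyltransferase gene Kat2a lowest at 7.39 ± 1.11 TPM. Of the kinase pathway known to induce Klf2 and Klf4 in endothelium, from MEK5 and ERK5 to MEF2, 7 of 7 genes did, with Mef2a at 39.4 ± 4.96 TPM, Map3k3 at 33.4 ± 0.548 TPM and Map3k2 lowest at 5.76 ± 0.0907 TPM. All 5 ubiquitin ligase genes did as well, from Wwp1, which acts on KLF proteins, at 28.5, 50.9 and 39.7 TPM and Smurf1 at 21.1 ± 2.93 TPM down to Fbxw7 at 5.36 ± 0.748 TPM. None of these lists held a gene at 0.

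For the TGF-beta pathway around Klf10 and Klf11, 7 of 8 genes reached 1 TPM in every replicate, against 44.3% of 22028 protein-coding genes. The ligand gene Tgfb1 was at 203 ± 23.8 TPM (SD, n = 3) and the receptor gene Tgfbr2 at 47.9 ± 10.3 TPM, while Smad7, a feedback inhibitor that the pathway induces, stood lowest at 0.32 ± 0.0361 TPM. Beside Klf9, all 6 genes of the glucocorticoid list did, with the receptor gene Nr3c1 at 34.5 ± 4.17 TPM, its target Tsc22d3 at 33.5 ± 6.77 TPM and the clock gene Per1 lowest at 3.41 ± 0.946 TPM. Among genes linked to KLF2, the sphingosine phosphate receptor gene S1pr1 was at 2.95 ± 0.813 TPM. Thbd, the thrombomodulin gene, named after its values were seen, did not reach 1 TPM in every replicate, at 0.74, 1.32 and 0.83 TPM, and Nos3, the endothelial nitric oxide synthase gene, was at 0.01 ± 0.01 TPM. Klf2 was highest in replicate 1, while Thbd and S1pr1 were lowest there.

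The 3′ ends of the leading transcripts differed widely among the 9 members other than Klf10. Untranslated 3′ ends of 9564 expressed genes had a median length of 915 bases and a median of 1 ATTTA, the core letters of AU-rich elements known to mark unstable messages, and 65.4% held at least 1. Klf7-202 had 6266 bases with 18 ATTTA, and 99.4% of these genes had that many or fewer. Longer ends have more room for ATTTA. Per kb, Klf7-202 had 2.87, and 77.7% of these genes had that density or a lower one, with a median of 1.24. Klf9-201 had 3222 bases with 8, Klf3-201 had 3743 with 7 and Klf6-201 had 3111 with 7. Klf11 and Klf16 had 4 each, and Klf13 had 3 in 5157 bases. Klf2 and Klf4, the members that varied most, had the shortest ends, 737 and 982 bases, with 1 ATTTA each. Their densities were 1.36 and 1.02 per kb, and that of Klf13 was lowest among the 9 at 0.582. RNA stability was not measured.

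The levels were checked against the second transcript tables, made from FASTQ files, for the 9 members other than Klf10. The leading transcript was the same in both for 9 of 9. The median log2 of FASTQ-made over alignment-made TPM was -0.49, -0.12 and 0.06 over these members in replicates 1, 2 and 3, against medians over 9735 protein-coding genes of -0.48, -0.19 and -0.03. Klf10-204 took 10.1% of all TPM in the FASTQ-made table of replicate 1. With both tables rescaled over protein-coding genes other than Klf10, an alternative chosen after seeing the data, the members' medians were 0.02, 0.16 and 0.18 and those over all genes 0.02, 0.09 and 0.09. After rescaling, the median of replicate 1 lay nearest to 0. The rescaling leaves out every gene that is not protein-coding as well as Klf10. The part of Klf10-204 in this shift was therefore not told apart and was not tested.

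**Figure D4:**
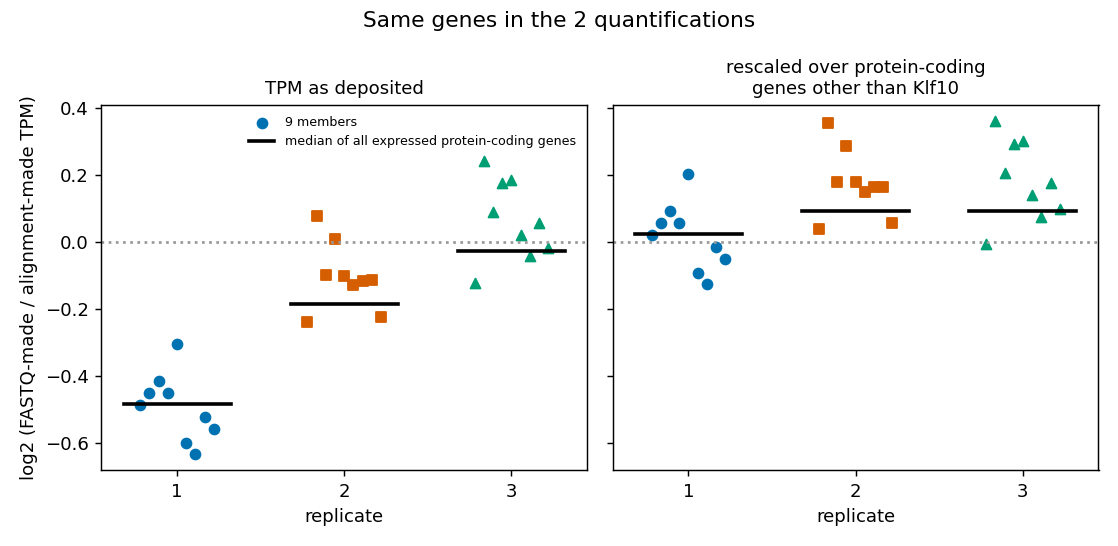
Log2 of FASTQ-made over alignment-made TPM for 9 members in each replicate, as deposited on the left and rescaled over protein-coding genes other than Klf10 on the right, with the median of 9735 protein-coding genes as a bar. On the left the members of replicate 1 lie around -0.49, and on the right those of all 3 replicates lie between -0.13 and 0.36.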

How the data were processed

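Polyadenylated RNA was measured in 3 samples, 1 group by the labels. The labels give 1 µg RNA per library and sizes of 250 to 400. The file lists deposited with the tables name assembly mm10 and annotation M21. Programs, versions and strand use are not stated in the sources used here. Per the file headers, the authors' alignment-made gene and transcript tables hold expected counts, TPM and a posterior SD of the count, and the FASTQ-made transcript tables hold estimated counts and TPM.

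Members were found by symbol and looked up by gene identifier. The genes and lists were chosen with earlier results of these data known. Total expected counts were 23377091, 36824106 and 37685712, and entries that name no gene, 0.178%, 0.107% and 0.115% of counts, stayed out of library sizes. Intervals and floors (3 counts) cover counting error only. Counts were rounded for edgeR 4.0.16 (R 4.3.3), kept by filterByExpr and scaled by TMM (factors 0.982, 1.03 and 0.992). A quasi-likelihood fit with an intercept alone gave a one-sided F test of each gene's dispersion over the trended prior. Its p-values were adjusted by Benjamini-Hochberg over all genes. The test was also run on simulated data, and its recovery there is not given here. DESeq2 1.42.0 size factors, limma 3.58.1 voom, other scalings and leaving out each replicate were alternatives. Sharing was the percent of 31-base sequences found, on either strand, in other M21 genes. Promoters are RefSeq, GRCm38.p6. Named genes are the 10 members, the other KLF and SP genes, from each partner list the 2 highest and the lowest by mean TPM and those at 0, and the 5 most like in pattern to the highest and to the most variable member; 1 gene of these is not reported here. Python 3.11.15, pandas 2.3.3, numpy 2.4.6 and matplotlib 3.10.9 were used.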

Additional observations from a re-analysis of the deposited data

Results flagged for a closer look

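The short Klf10 transcript Klf10-204 carried signal in tables that the levels above do not use for this gene. In the FASTQ-made tables it had 330752, 4474 and 4304 estimated counts in replicates 1, 2 and 3, or 1.08%, 0.0110% and 0.0105% of all estimated counts, and in replicate 1 it ranked 2 among all transcripts by TPM. The alignment-made tables give it 0 in all 3 libraries. The other Klf10 transcripts together had 262, 622 and 350 estimated counts in the FASTQ-made tables, close to the 216, 588 and 339 counts of the whole gene by alignment. Klf10-204 is 326 bases long and holds 294 sequences of 31 bases, of which 175 are in no other Klf10 transcript. Of these, 13 also occur, on either strand, in other genes. Its longest run of 1 base is 33 A, and 31 A or 31 T in a row occur in 163 other genes. Whether these letters account for the counts was not tested.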

How the results depend on the processing

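Depth limits Klf11, Klf9, Klf2 and Klf4, which rest on 31 to 169 counts per library, and 3 replicates of 1 group limit every value. No mean log2 ratio between members changed its sign under any alternative run. With CPM, which is not divided by length, 5 of 10 members reached 10 in place of 3 (31.9% of protein-coding genes), and the highest library was replicate 2 for 2 of 8 members (41.4% of 10510 genes). At least 1 in every replicate was reached by 10 of 10 members in CPM (45.6% of protein-coding genes). With TPM rescaled by TMM it was reached by 7 of 10 (44.2%). By FASTQ-made TPM, without Klf10, it was reached by 7 of 9 (44.2% of 21950 genes). Also by FASTQ-made TPM, 5 of 7 members exceeded the 1.5-fold spread (47.9% of 10501 genes). The highest library there was replicate 1 for 2, replicate 2 for 0 and replicate 3 for 5 of the 7, against 10.6%, 28.3% and 61.1% of these genes, so all genes shifted too. Leaving out 1 replicate gave 4 to 7 separated neighbours and 1 to 3 members past the 1.5-fold spread. Without replicates 1, 2 and 3 the latter were 1, 2 and 3 of 8, against 11.8%, 14.0% and 14.5% of 10510 genes. The median over members of the mean log2 of FASTQ-made over alignment-made TPM changed sign, from -0.19 to 0.11, with the rescaling added after seeing the data. Without the filter on low counts, 143 of 20285 genes passed the excess variance test and 0 members did; under DESeq2 size factors, a robust prior, voom or without any 1 replicate, 0 genes passed. The members with an unadjusted p under 0.05 (edgeR) changed with the setting. They were Klf10, Klf2 and Klf4 without the filter (6.24% of genes) and Klf10 alone without replicate 1 (5.50%). Without replicate 3 they were Klf2 and Klf4 (5.52%), and under the other settings Klf4 alone. The causes were not tested. Of the other values, 92 stayed within their spread and 35 moved, among them 9 levels in CPM. No paired analysis was possible because there is a single group.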
